A study of Mus musculus with 6 samples.

Results

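The genes described here encode the semaphorins, their plexin and neuropilin receptors, the ephrins and the Eph receptors. They were taken from the count files by symbol (Sema3 to Sema7, Plxna to Plxnd, Nrp1 and Nrp2, Efna and Efnb, Epha and Ephb), which gave 53 of the 23260 genes listed. The symbol rule itself used no measured value, though earlier results of these data were known when the members were chosen. The study cultured embryonic submandibular glands (eSMGs), a salivary gland, from ICR mice at embryonic day 14 (E14) and compared untreated glands with glands given AMD3100, an antagonist of the chemokine receptor CXCR4. AMD3100 was used at 50 µM and glands were collected 6 h after it was added, with up to 10 glands pooled in a tube, and each group had 3 libraries of 3′ mRNA sequencing, numbered 1 to 3. The comparison asks which transcripts differ when CXCR4 is blocked in the branching gland. Whole glands were used, so each library mixes epithelium, mesenchyme, nerve, vessel and blood cells, and fewer cells of a type cannot be told apart from less RNA per cell. No genetic change is described for either group, and AMD3100 was added to the medium of the whole explant. The sources used here do not say whether tubes of a group came from separate litters, so p-values measure the spread between these 6 libraries only.

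Semaphorins are secreted or membrane-bound guidance cues. Plexins are their receptors, and most class 3 semaphorins reach plexins through the coreceptors Nrp1 and Nrp2. Plexins act through a GTPase-activating domain in the cell, and their signals pull back or turn the cell edge. Ephrins and Eph receptors sit on opposing cells and signal in both directions on contact, and they keep cell populations apart at tissue boundaries. In developing salivary glands semaphorin signalling through Nrp1 is known for its part in cleft formation, and both families guide axons and pattern vessels.

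Library totals ran from 9051595 counts in AMD3100 replicate 3 to 14393031 counts in AMD3100 replicate 1. The 53 genes together took from 0.131% of the counts in control replicate 3 (95% Wilson interval 0.129 to 0.133) to 0.197% in AMD3100 replicate 1 (0.195 to 0.199). Such intervals cover counting error only. Levels below are counts per 1000000 counts of the library (CPM) after normalization by trimmed mean of M-values (TMM), and on that scale 3 counts, the smallest level taken as measurable, equal 0.173 to 0.368 CPM. Since 3′ libraries read each transcript from its end, CPM was not divided by transcript length. Most of these genes were expressed at moderate levels: 48 had a mean of at least 1 CPM over the 6 libraries, 32 at least 10 CPM and only 3 at least 100 CPM, namely Nrp1 (128 CPM), Nrp2 (118 CPM) and Efna2 (101 CPM). The ranks of Nrp2 and Efna2 rested on the replicate 3 libraries. Over the other 4 libraries their means were 104 and 69.0 CPM, below Plxnb2 (115 CPM) and Sema5a (113 CPM). Sema3g and Epha6 were listed at 0 in every library. Plxnb3 had 3 counts and Epha8 had 11 counts, all in control replicate 1, and Efna3 had 1 count, in AMD3100 replicate 3. Those 5 genes did not pass the filter on low counts, and the other 48 were tested among 13610 genes.

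The labelled tissue was checked with marker genes. Epithelial, mesenchymal and neuronal markers were abundant, with summed levels of 1349 to 3338 CPM, 1824 to 4329.8 CPM and 945 to 1633 CPM over the libraries. Krt15, an epithelial keratin, and Col3a1, a fibrillar collagen of mesenchyme, led their lists. Of the neuronal markers, Gap43, a growth cone protein, was the most abundant outside replicate 3, at 277 and 243 CPM in the controls and 271 and 190 CPM under AMD3100, and Prph, an intermediate filament of peripheral neurons, had the highest mean over all 6, at 163, 159 and 281 CPM in control replicates 1, 2 and 3 and at 183, 112 and 483 CPM in AMD3100 replicates 1, 2 and 3. Endothelial markers were scarcer, with sums of 63.8 to 174 CPM, and Egfl7, a secreted endothelial protein, led them. Epithelial, mesenchymal and neuronal markers were thus present in the labelled gland, while endothelial markers were detected unevenly. The endothelial transcription factor Sox18 was at 0 in every library. Of the 12 endothelial markers, 4 were at 0 in control replicate 1 and 4 in AMD3100 replicate 2, with Tek and Sox17 at 0 in both of these libraries. Replicate 3 of both groups stood apart from the other 4 libraries: on the first principal component, with 38.2% of the variance, control replicate 3 lay at 84.8 and AMD3100 replicate 3 at 80.8, and the other 4 libraries lay between -78.7 and -17.4. For 44.2% of the genes tested both replicate 3 libraries lay above or both below all of the other 4. Estimates in replicates 1 and 2 only are therefore given too for guidance genes whose groups did not overlap and for the main genes that follow the replicate number.

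**Figure D1:**
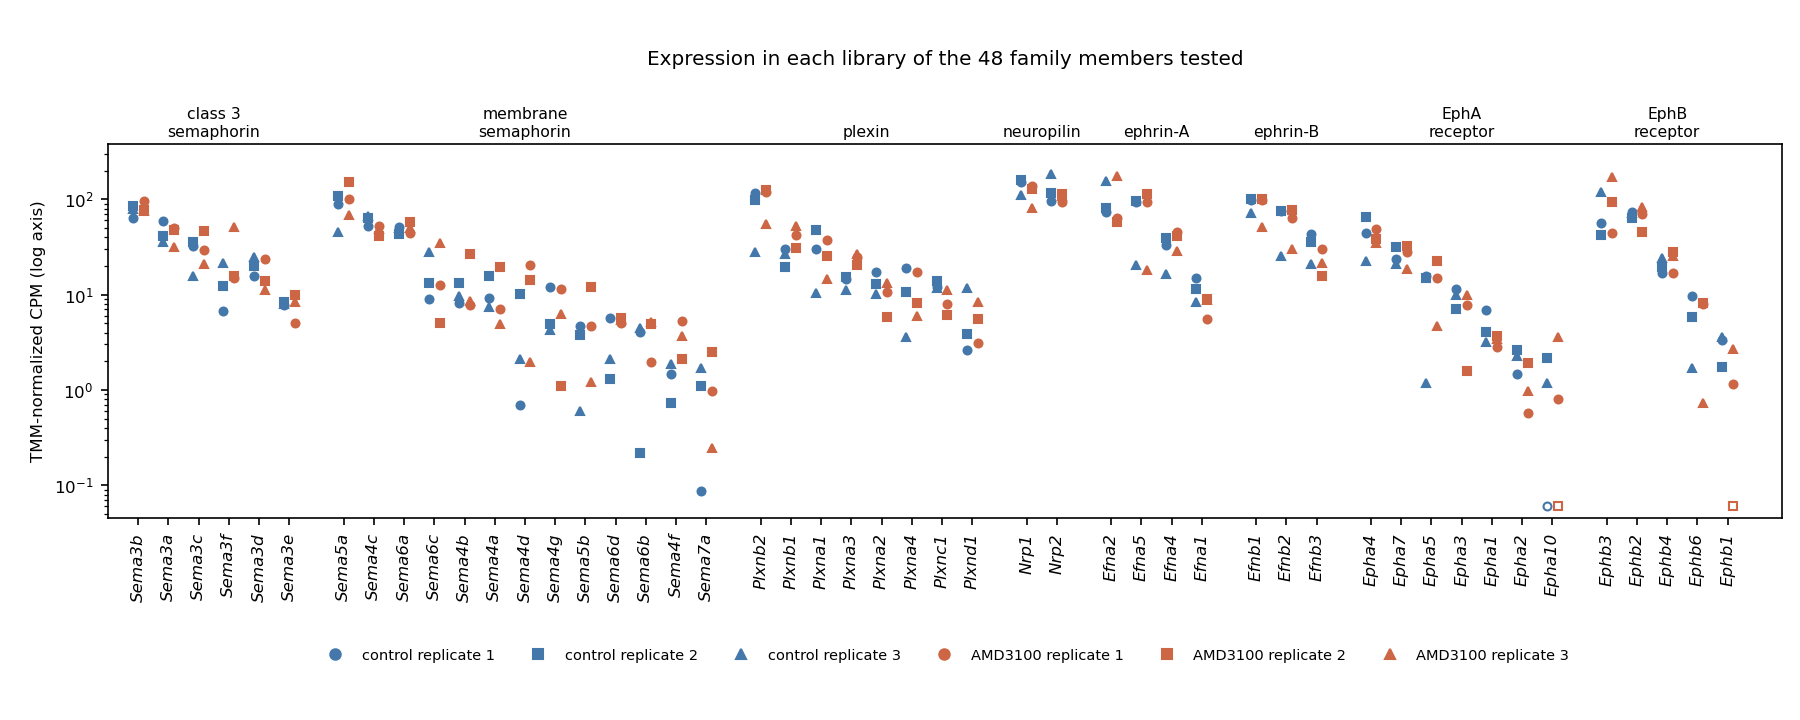
Levels of the members by role (CPM, log axis), with one point per library for the 3 control and 3 AMD3100 libraries. Values of 0 are drawn as open symbols at the bottom of the axis. Nrp1, Nrp2 and Efna2 have the highest means over the 6 libraries (Nrp2 and Efna2 only through replicate 3). The lowest genes scatter widely between libraries of the same group.

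With condition as the only term, 228 of the 13610 genes, 1.68%, passed an unadjusted p under 0.05 with a fold change over 1.5 in the quasi-likelihood test of edgeR, 54 of them higher (0.397%) and 174 lower (1.28%) under AMD3100. Of the 48 guidance genes 1 passed, the plexin Plxna3, which rose. By the same rule DESeq2 called 2.62% of all genes and a procedure modelled on the study's methods 2.34%, and in each Plxna3 was the only guidance gene called. No gene of the whole table (0.0%) passed after Benjamini-Hochberg adjustment in edgeR, while 228 had an unadjusted p under 0.05, the same 228 that also passed the fold. DESeq2 called 5 genes (0.0274%) after adjustment and edgeR with the replicate number as a block 3 (0.022%), with 0 guidance genes among them. The fitted changes of the 48 genes were centred near 0: 23 were higher and 25 lower under AMD3100, with a median log2 fold change of -0.04, against 0.02 over all genes tested, where 7100 were higher (52.2%) and 6510 lower (47.8%). A fitted difference of more than 1.5-fold, whatever its p, was seen for 9 of the 48 genes (18.8%) and for 23.1% of all genes. Control and AMD3100 libraries did not overlap for 4 of the 48 genes (8.33%), against 7.44% of all genes. Of these, 3 were higher under AMD3100 (3.28% of all genes) and 1 was lower (4.17% of all genes). The treated library differed from the same-numbered control in 1 direction in all 3 pairs for 14 of the 48 genes (29.2%), against 30.2% of all genes. These shares lie near the background of the whole table. For every guidance gene other than Plxna3 the unadjusted p in edgeR was above 0.05, and estimates below are log2 fold changes of AMD3100 over control with their standard errors (SE).

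**Figure D2:**
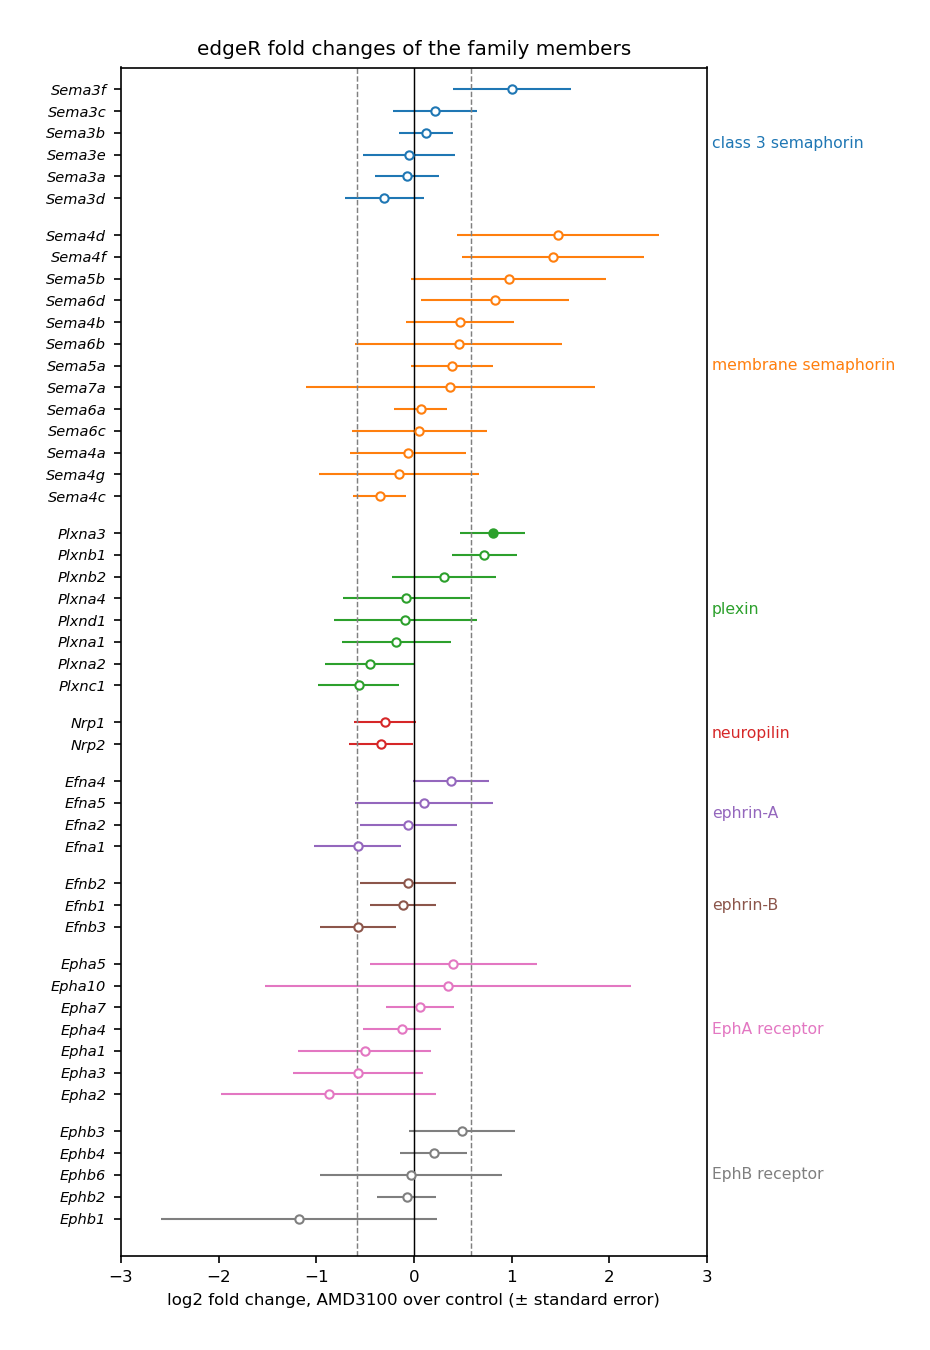
Fitted log2 fold change (AMD3100 over control, edgeR) of each tested member with its standard error, grouped by role. Dashed lines mark 1.5-fold and the filled symbol marks the gene with an unadjusted p under 0.05, Plxna3. The estimates lie on both sides of 0 within every role with more than 3 members.

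Among the secreted class 3 semaphorins, 6 of 7 were tested, with 3 higher, 3 lower and none past the test. Sema3b, which binds neuropilins, was the most abundant, at 64.2, 84.1 and 79.7 CPM in control replicates 1, 2 and 3 and at 97.0, 76.7 and 75.4 CPM in AMD3100 replicates 1, 2 and 3. Its groups overlapped, and the log2 fold change was 0.13 (SE 0.27). Sema3a, the repulsive ligand of Nrp1 and plexin-A receptors, was at 59.4, 40.7 and 35.7 CPM in the controls and at 49.9, 48.0 and 31.9 CPM under AMD3100. Both replicate 3 libraries were the lowest for Sema3a, and the groups differed by a log2 fold change of -0.07 (SE 0.33), or -0.04 in replicates 1 and 2 only. Sema3f, a ligand that prefers Nrp2, had the highest estimate of the class. It was at 6.73, 12.2 and 21.6 CPM in the controls and at 14.8, 15.7 and 51.0 CPM in the treated glands, so that the treated library was above its same-numbered control in all 3 pairs while the groups overlapped. The log2 fold change of Sema3f was 1.0 (SE 0.60). With the replicate number as a block it was 0.91 (unadjusted p = 0.0129 and adjusted p = 0.626 in edgeR), and over all leave-one-out fits it ran from 0.16 to 1.53. Without both replicate 3 libraries it was 0.68. Sema3c, Sema3d and Sema3e had mean levels of 30.2, 18.2 and 7.92 CPM and log2 fold changes of 0.21, -0.30 and -0.05. The summed level of the class was 191 ± 8.43 CPM (SD, n = 3) in the controls and 210.0 ± 10.3 CPM (SD, n = 3) under AMD3100.

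Of the membrane semaphorins, 10 of the 13 tested genes had a higher estimate under AMD3100 and 3 a lower one, but none passed the test. Of all genes tested, 52.2% had a higher estimate. The median log2 fold change was 0.39, against 0.02 over all genes. Among the higher genes, Sema4b, Sema5b, Sema6a, Sema6b, Sema6c and Sema7a took either sign as single libraries were left out. So did Sema4a and Sema4g among the lower ones. Sema5a, a transmembrane semaphorin with thrombospondin repeats, was the most abundant. It measured 89.6, 109 and 45.3 CPM in the controls and 100, 152 and 68.0 CPM under AMD3100. The treated library was higher in each pair, both replicate 3 libraries were the lowest, and the groups overlapped. For Sema5a the log2 fold change was 0.39 (SE 0.42) and 0.33 in replicates 1 and 2 only, and with the block it was 0.41 (unadjusted p = 0.0304 and adjusted p = 0.722 in edgeR), below the 1.5-fold threshold. Sema4c, a ligand of Plxnb2, was at 52.4, 63.0 and 66.9 CPM in the controls and at 52.6, 41.2 and 49.0 CPM in the treated libraries. Control replicate 1 lay just below the highest treated library, so the groups overlapped, and the log2 fold change was -0.35 (SE 0.27).

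The 2 largest estimates of all 48 genes were membrane semaphorins with low counts. Sema4f gave 17, 10 and 19 counts in control replicates 1, 2 and 3 and 91, 23 and 30 counts in AMD3100 replicates 1, 2 and 3. In CPM these were 1.49, 0.727 and 1.89 against 5.23, 2.12 and 3.68, so every treated library was above every control. The log2 fold change of 1.43 had an SE of 0.93, and without any 1 library it stayed between 1.08 and 1.74. Without both replicate 3 libraries it was 1.72. Sema4d, the soluble or membrane-bound ligand of Plxnb1, had 8, 141 and 21 counts in the controls and 354, 153 and 16 counts in the treated libraries. Its level differed 29.1-fold between the highest and lowest library, the widest ratio of the 44 genes that had more than 3 counts everywhere, and the groups overlapped. The estimate for Sema4d, 1.48 (SE 1.04), moved between 0.87 without AMD3100 replicate 1 and 3.12 without control replicate 2. The remaining 9 membrane semaphorins had means from 1.10 CPM (Sema7a) to 49.2 CPM (Sema6a) and log2 fold changes from -0.15 (Sema4g) to 0.97 (Sema5b). Sema6a was the steadiest of the 44 genes, with the highest library 1.31-fold above the lowest.

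The plexins held the gene that rose. Plxna3 (chrX:74328290-74344689, mm10) encodes a plexin-A receptor of class 3 semaphorins, known for signalling with Nrp2. Control replicates 1, 2 and 3 gave 166, 209 and 113 counts, which are 14.5, 15.2 and 11.2 CPM. AMD3100 replicates 1, 2 and 3 gave 427, 221 and 219 counts, which are 24.6, 20.3 and 26.9 CPM. The lowest treated library lay above the highest control, and the treated library was higher in all 3 pairs. Means were 13.7 ± 2.11 CPM (SD, n = 3) and 23.9 ± 3.30 CPM (SD, n = 3), a 1.75-fold difference. The log2 fold change was 0.81 (SE 0.33), with unadjusted p = 0.0383 and adjusted p = 1.0 in edgeR. An exact two-sided permutation test on the 6 CPM values gave p = 0.1, the smallest that 3 libraries against 3 allow. Leaving out each library in turn kept the log2 fold change between 0.69 and 0.92, but the call was lost in 5 of the 6 fits, with unadjusted p = 0.0406 in edgeR without AMD3100 replicate 2 and up to 0.114 without AMD3100 replicate 3. Without both replicate 3 libraries it was 0.59 (unadjusted p = 0.166 in edgeR), and with no filter on low counts edgeR gave unadjusted p = 0.0568.

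Plxnb1 (chr9:109093849-109119915, mm10) encodes the receptor of Sema4d. It was at 29.8, 19.7 and 27.0 CPM in the controls and at 42.2, 31.0 and 53.0 CPM in the treated libraries. Its groups did not overlap either, and all 3 pairs had the higher level under AMD3100. Means of 25.5 ± 5.21 and 42.1 ± 11.0 CPM (SD, n = 3 each) gave a log2 fold change of 0.72 (SE 0.33), which missed the threshold (unadjusted p = 0.0575 in edgeR). With the replicate block it was 0.71 (unadjusted p = 0.0101 and adjusted p = 0.583 in edgeR), and without both replicate 3 libraries it was 0.56. Under that block 598 genes of the table (4.39%) were called by unadjusted p and fold in edgeR, and among the 48 guidance genes there were 3, Sema3f, Plxna3 and Plxnb1, which makes 6.25%.

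Plxnc1, the receptor of Sema7a, was the only gene of the 48 with every treated library below every control. Its levels were 11.9, 13.8 and 11.7 CPM in the controls and 8.05, 6.17 and 11.2 CPM under AMD3100, so that AMD3100 replicate 3 came close to the lowest control. The log2 fold change was -0.56 (SE 0.41), or -0.86 without both replicate 3 libraries. Plxnb2, a receptor of class 4 semaphorins and the most abundant plexin, was at 117, 97.5 and 28.3 CPM in the controls and at 119, 126 and 54.7 CPM in the treated glands. Both replicate 3 libraries were far lower than the other 4, with means of 41.5 against 115 CPM, and the groups overlapped. The log2 fold change of Plxnb2 was 0.31 (SE 0.53) and 0.19 in replicates 1 and 2 only, and it ran from -0.10 without control replicate 3 to 0.66 without control replicate 1. Plxna1, Plxna2, Plxna4 and Plxnd1 all had lower estimates under AMD3100, from -0.45 (Plxna2) to -0.08 (Plxna4), and none passed the test. The plexins thus gave 3 higher and 5 lower estimates with a median log2 fold change of -0.08. That median was 0.07 with the replicate block and -0.01 in replicates 1 and 2 only. With the block Plxna4 and Plxnd1 had estimates above 0, at 0.05 and 0.10.

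**Figure D3:**
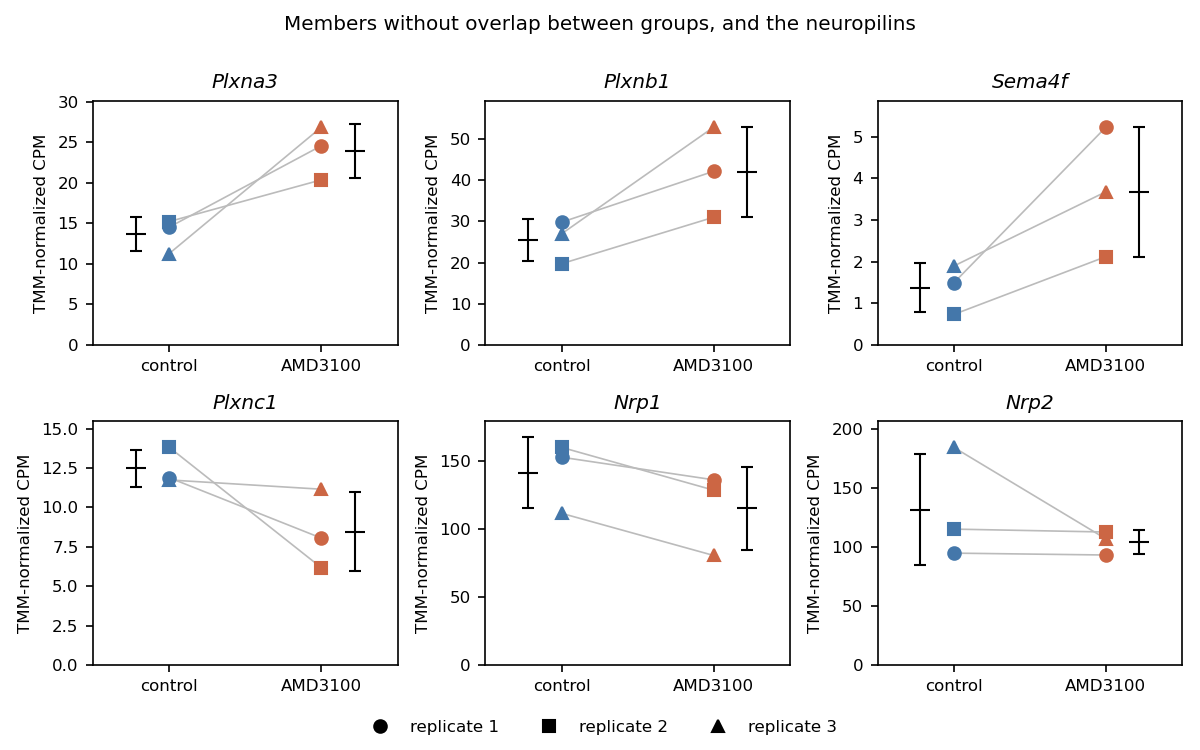
CPM in each library for selected members, with control and AMD3100 side by side. Grey lines join libraries with the same replicate number, and black bars give the mean ± SD of 3 libraries. Plxna3, Plxnb1 and Sema4f show no overlap with the treated libraries higher, and Plxnc1 none with them lower.

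Both neuropilins, which also bind VEGF, had lower means under AMD3100. Nrp1 (chr8:128358591-128505476, mm10) was at 153, 160.1 and 112 CPM in the controls and at 136, 129 and 80.6 CPM in the treated libraries, and was lower in all 3 pairs. The groups overlapped because control replicate 3 was below AMD3100 replicates 1 and 2. Nrp2 (chr1:62703317-62818692, mm10) was at 94.9, 115 and 185 CPM against 93.3, 113 and 107 CPM. In replicates 1 and 2 control and treated levels were close, and control replicate 3 was the one high library. The log2 fold changes were -0.30 (SE 0.32) for Nrp1 and -0.33 (SE 0.32) for Nrp2. In replicates 1 and 2 only the estimate for Nrp1 was -0.25, and without control replicate 3 that for Nrp2 was -0.01. The sum of both neuropilins, 248, 275 and 296 CPM in the controls and 229.6, 241 and 188 CPM under AMD3100, did not overlap between the groups, while the sums of the other 7 roles did, as against no overlap for 7.44% of single genes in the whole table.

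Among the ephrin-A ligands, which are held to the membrane by a lipid anchor, 4 of 5 were tested, with 2 higher, 2 lower and none past the test. Efna2 was at 74.2, 80.7 and 155 CPM in the controls and at 63.8, 57.3 and 177 CPM in the treated glands. The replicate 3 libraries averaged 166 CPM and the other 4 averaged 69.0 CPM, while the log2 fold change between the groups was -0.06 (SE 0.50). It was -0.36 in replicates 1 and 2 only, -0.79 without AMD3100 replicate 3 and 0.37 without control replicate 3. Efna5 showed the opposite split, at 94.5, 95.8 and 20.6 CPM in the controls and 93.8, 115 and 18.0 CPM under AMD3100. Its replicate 3 mean was 19.3 CPM and that of the other 4 libraries 99.7 CPM, with a log2 fold change between groups of 0.11 (SE 0.71) and of 0.13 in replicates 1 and 2 only, which ran from -0.33 without control replicate 3 to 0.56 without AMD3100 replicate 3. Efna1 and Efna4 had log2 fold changes of -0.58 and 0.38.

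The 3 ephrin-B ligands span the membrane and signal back into their own cell. All 3 had estimates below 0, from -0.57 (Efnb3) to -0.06 (Efnb2), and none passed the test. Efnb1 was at 98.7, 101 and 71.3 CPM in the controls and at 97.4, 101 and 51.7 CPM under AMD3100. Efnb2, which also marks arterial endothelium, was at 76.0, 76.0 and 25.4 CPM against 63.7, 77.0 and 29.8 CPM. For both genes the replicate 3 libraries were the lowest of each group, and control and treated values overlapped. The direction of both estimates turned without AMD3100 replicate 3, to 0.12 for Efnb1 and 0.24 for Efnb2, and in replicates 1 and 2 only they were -0.01 and -0.12.

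The EphA receptors bind mainly ephrin-A ligands. Of 9 genes 7 were tested, with 3 higher and 4 lower estimates and a median log2 fold change of -0.12. Epha4, which binds ligands of both ephrin classes, was at 44.4, 64.9 and 22.5 CPM in the controls and at 48.3, 38.1 and 35.2 CPM in the treated libraries. Epha7 was at 23.8, 31.3 and 20.8 CPM against 28.0, 32.6 and 18.6 CPM. The groups overlapped for both, with log2 fold changes of -0.12 (SE 0.40) and 0.06 (SE 0.34), and each estimate took either sign as single libraries were left out. In replicates 1 and 2 only they were -0.34 and 0.13. Epha2, an Eph receptor of epithelia, had the second lowest estimate of the 48 genes, at very low counts: 17, 36 and 23 in the controls and 10, 21 and 8 under AMD3100. Its log2 fold change of -0.87 (SE 1.10) came with overlapping groups. Epha5 repeated the split by replicate number, at 15.7, 14.8 and 1.19 CPM in the controls and 14.8, 22.6 and 4.66 CPM under AMD3100, with a log2 fold change of 0.41 that was 0.28 in replicates 1 and 2 only.

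Of the EphB receptors, which bind mainly ephrin-B ligands, all 5 were tested, with 2 higher and 3 lower estimates. Ephb3 was at 56.6, 42.2 and 119 CPM in the controls and at 44.6, 92.6 and 169.8 CPM in the treated glands, and the replicate 3 library was the highest in each group. Replicate 3 means were 145 CPM against 59.0 CPM in the other 4 libraries. The log2 fold change of 0.49 (SE 0.54) became -0.10 without AMD3100 replicate 3 and 1.06 without control replicate 3, and was 0.46 without both. Ephb2 was steadier, at 73.8, 64.3 and 71.5 CPM in the controls and 69.6, 45.8 and 83.6 CPM under AMD3100, a log2 fold change of -0.07 (SE 0.31). Ephb1 had the lowest estimate of all 48 genes. Its counts were 38, 24 and 36 in the controls and 20, 0 and 22 in the treated libraries, which overlapped with the controls in CPM. The fitted log2 fold change of -1.17 (SE 1.41) ran from -2.29 without AMD3100 replicate 3 to -0.58 without AMD3100 replicate 2. AMD3100 replicate 2 had no count of Ephb1, which at its depth allows up to 0.276 CPM.

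Many guidance genes differed between replicate 3 and the other replicate numbers. For 21 of the 48 genes (43.8%) both replicate 3 libraries lay outside the range of the other 4, close to the 44.2% of all genes. The direction was uneven: 16 genes (33.3%) were lower in replicate 3, against 21.1% of all genes, and 5 (10.4%) were higher, against 23.1%. The 5 higher genes were Sema3f, Sema6c, Plxnd1, Efna2 and Ephb3. The 16 lower genes included Sema3a, Sema3c, Sema5a, Plxna1, Plxnb2, Nrp1, Efna5, Efnb1, Efnb2, Epha4 and Epha5, and all 8 roles were represented among the 16. Since replicate 3 was picked out after its libraries were seen to stand apart, these counts are a description. Summed over a role, the plexins were at 243, 221 and 114 CPM in control replicates 1, 2 and 3 and at 263, 229 and 188 CPM under AMD3100. The ephrin-B sum was 218, 213 and 118 CPM against 191, 194 and 103 CPM. The EphB sum moved the other way, with 160.4, 134 and 220.5 CPM in the controls and 140.4, 175 and 282 CPM in the treated libraries. The 53 genes together summed to 1574 ± 136 CPM (SD, n = 3) in the controls and 1618 ± 106 CPM (SD, n = 3) under AMD3100.

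**Figure D4:**
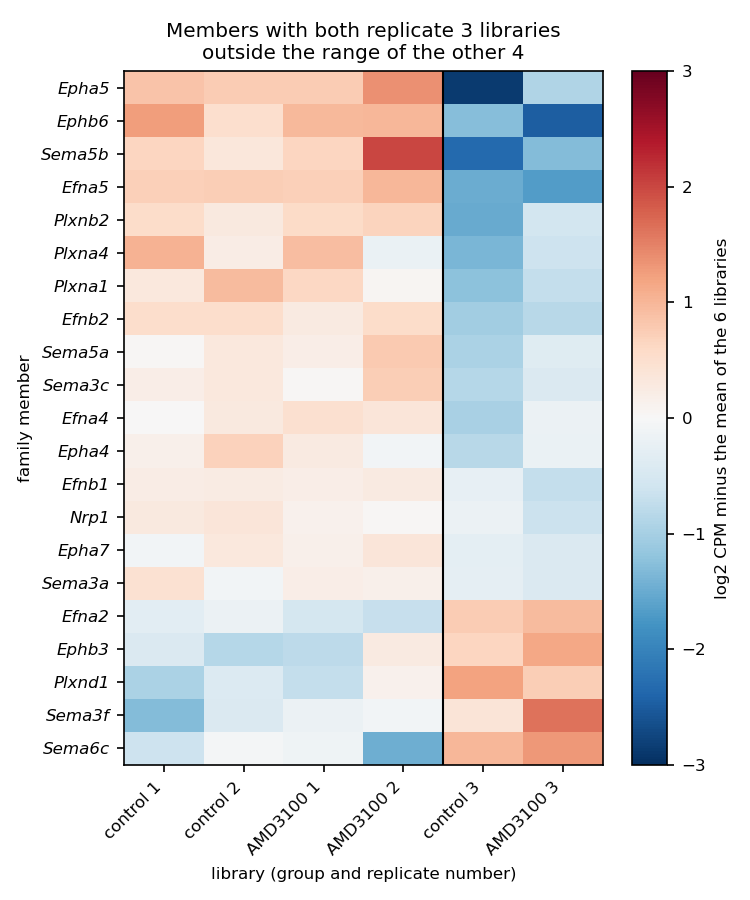
Heat map of log2 CPM minus the mean of the 6 libraries for the 21 members whose replicate 3 libraries both lay outside the other 4. Columns are the 6 libraries. The replicate 3 columns of both groups share their sign in every line, 5 genes above the other libraries and 16 below.

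Markers of other cell types also differed by replicate number, to different degrees. For 44.2% of all genes tested both replicate 3 libraries lay outside the other 4. All 8 skeletal muscle markers were higher in both replicate 3 libraries than in the other 4, and their sum was 309, 282 and 1558 CPM in the controls and 206, 174 and 2072 CPM under AMD3100. Myog, a muscle transcription factor, had the highest mean, with 41.0, 39.9 and 519.6 CPM against 13.9, 9.94 and 485 CPM, while outside replicate 3 the cardiac actin gene Actc1 was the most abundant, with 130.1 and 126 CPM in the controls and 92.2 and 66.6 CPM under AMD3100. The mesenchymal sum was 4312, 4260.0 and 2077 CPM in the controls and 4329.8, 4283 and 1824 CPM in the treated glands, with 5 of 12 genes lower and 1 higher in replicate 3. Of the 12 epithelial markers 8 were lower in both replicate 3 libraries. The sum of all 12, at 1982, 1931 and 1349 CPM in the controls and 2349, 2001 and 3338 CPM under AMD3100, did not follow the number. Much of that sum was the single gene Krt15, with 1040, 1010 and 886 CPM in the controls and 1364, 1014 and 2468 CPM under AMD3100. The sum therefore says little of the other epithelial markers. Macrophage markers summed to 101, 71.6 and 224 CPM against 95.2, 105 and 178 CPM, and Schwann and glial markers to 66.4, 68.4 and 208 CPM against 58.9, 78.9 and 147 CPM. Of the 8 macrophage markers 3 were higher and 2 lower in both replicate 3 libraries. C1qa, a complement gene, had the highest mean of that list, with 15.7, 14.0 and 122 CPM against 23.0, 18.5 and 94.9 CPM, and outside replicate 3 the receptor gene Csf1r was above it, with 43.1 and 26.5 CPM in the controls and 39.8 and 30.8 CPM under AMD3100. S100b, a glial calcium-binding protein, led the glial list with 49.2, 42.8 and 149 CPM against 41.5, 58.5 and 122 CPM. Of the 12 neuronal markers 4 were higher and 6 lower in both replicate 3 libraries. The endothelial list had 1 of 9 tested genes higher and 0 lower, and the glial list 2 of 5 higher and 0 lower. The part of these markers in the levels of the guidance genes was not tested.

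Between the groups, 1 of the 66 markers tested passed p and fold in edgeR, Fabp7 of the glial list, against 1.68% of all genes. The epithelial, mesenchymal, endothelial, neuronal, macrophage and muscle lists had 0 such genes. With the replicate block 3 of the 61 genes tested in these lists passed, against 4.39% of all genes. Krt15 had a blocked log2 fold change of 0.62 (unadjusted p = 0.024 and adjusted p = 0.703 in edgeR). Its levels were 1040, 1010 and 886 CPM in the controls and 1364, 1014 and 2468 CPM under AMD3100, highest in AMD3100 replicate 3. Twist1, a mesenchymal transcription factor, had -0.97 (unadjusted p = 0.0193 and adjusted p = 0.703 in edgeR). Myog had -1.16 (unadjusted p = 0.00442 and adjusted p = 0.468 in edgeR). The glial gene Fabp7, a fatty acid binding protein, fell, from 25.3 ± 19.0 to 7.21 ± 3.0 CPM (SD, n = 3 each), with a log2 fold change of -1.82 (unadjusted p = 0.0126 in edgeR). Groups did not overlap for 4 of the 66 markers tested, against 7.44% of all genes: Cdh1, the epithelial cadherin, was higher in every treated library, and Osr1, a mesenchymal transcription factor, Fabp7 and C1qb, a complement gene of macrophages, were lower. Cdh1 was at 336, 301 and 210.2 CPM in the controls and 343, 393 and 506 CPM under AMD3100, with a log2 fold change of 0.55 (SE 0.31). Osr1 was at 184, 172 and 169.2 CPM against 148, 139.8 and 160.5 CPM, with a log2 fold change of -0.23. Of the 9 endothelial genes tested, 2 had higher and 7 lower estimates, with a median log2 fold change of -0.42 and sums of 89.5, 85.9 and 174 CPM in the controls and 63.8, 126 and 120.2 CPM under AMD3100.

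Genes known to work with these ligands and receptors were examined as lists. Of 71 partner genes listed, 69 were in the files, 60 were tested, 28 had higher and 32 lower estimates, and none passed p and fold in edgeR, against 1.68% of all genes. The semaphorin effectors, such as the collapsin response mediators, gave 10 higher and 11 lower estimates. Dpysl3, one of those mediators, had the highest mean of this list. It was at 400.2, 364 and 348 CPM in the controls and 361, 381 and 286 CPM under AMD3100. Rac1 was above it in both replicate 3 libraries, at 354 CPM in the control and 344 CPM under AMD3100. The Eph and ephrin effectors gave 8 higher and 12 lower estimates, with a median log2 fold change of -0.19. The highest mean of them was that of Sdcbp, the ephrin-B binding protein syntenin. It was at 203, 189 and 568 CPM in the controls and 133, 138 and 276 CPM in the treated libraries. Outside replicate 3, Inppl1 of the same list was at 200 and 177 CPM in the controls and at 172 and 228 CPM under AMD3100. That was above Sdcbp in the treated libraries only. Sdcbp was lower in every pair, with a log2 fold change of -0.81 (SE 0.50, unadjusted p = 0.14 in edgeR). With the replicate block, which called 4.39% of all genes, it was -0.70 (unadjusted p = 0.000914 and adjusted p = 0.244 in edgeR).

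The netrin, Slit, Robo and Unc5 families gave 5 higher and 7 lower estimates with a median log2 fold change of -0.05, and Slit2, a secreted repellent, had the highest mean of them, at 28.5, 40.4 and 101 CPM in the controls and 38.8, 50.4 and 145 CPM under AMD3100. Outside replicate 3 its receptor gene Robo2 was above it, with 85.8 and 62.8 CPM in the controls and 70.1 and 72.0 CPM under AMD3100. The VEGF ligands and receptors, which share the neuropilins, gave 5 higher and 2 lower estimates with a median log2 fold change of 0.19. Groups did not overlap for 4 of the 60 partners, against 7.44% of all genes. Named here after their values were seen, they were Tiam1, Ntn1, Ntn3 and Vegfb, all higher under AMD3100, a direction without overlap that 3.28% of all genes had. Tiam1, a Rac activator downstream of Eph receptors, was at 31.0 ± 5.48 CPM in the controls and 49.2 ± 9.17 CPM in the treated libraries (SD, n = 3 each), with a log2 fold change of 0.67 (SE 0.30, unadjusted p = 0.0544 in edgeR), and with the replicate block it was 0.66 (unadjusted p = 0.0123 and adjusted p = 0.611 in edgeR).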

How the data were processed

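The authors deposited one file per library with counts of reads per gene symbol, without normalization or filtering. Sequencing was of 3′ mRNA libraries with 50 bp single reads. The submitters' processing notes name mm10, Bowtie2 and edgeR. The counting tool, annotation and use of strand are not given in the sources used here, and no molecular identifiers are mentioned. Groups and replicate numbers came from the labels. A file had 23282 lines. Symbols occurred again in 44 lines, and 22 lines that only duplicated another line were dropped.

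Counts were tested in R 4.3.3 with edgeR 4.0.16 (TMM, filterByExpr on condition, glmQLFit, glmQLFTest, Benjamini-Hochberg over all genes), with condition as the only term. The call rule, an unadjusted p under 0.05 with a fold change over 1.5, uses the thresholds in the main text of the study. The study's figure captions give a higher fold threshold for the same number of genes. The procedure modelled on its methods, with quantile normalization of log2(count + 1) by limma 3.58.1 and an equal-variance test per gene, and DESeq2 1.42.0 were alternatives, together with other filters and normalizations, a replicate block and fits without single libraries or without both replicate 3 libraries. The steps were tested on simulated data. Deviations of same-numbered libraries from their group means had correlations of 0.185, 0.171 and 0.584 for numbers 1, 2 and 3. The pairing comes from the shared numbers, since the labels name no common litter or day. Crossed libraries reached 0.198 for control 2 with AMD3100 1 and 0.146 for control 1 with AMD3100 2. The correlations thus set number 3 apart but do not tell numbers 1 and 2 from each other. Blocked values are given where they change a call.

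Per-library values are given for the 2 most abundant genes of each role, genes with an edgeR p under 0.05, genes with a mean of at least 1 CPM whose groups do not overlap, and the 2 highest and 2 lowest fold changes among genes with such a mean. Sema3f, Epha5 and members in passing fall outside this rule and were named after their values were seen. The members and lists were chosen with earlier results of these data known. Gene positions are from RefSeq for GRCm38.p6 (mm10). Reads were simulated from the last 300 bases of each member's transcripts, on the older annotation supplied. They also matched a second place in the genome for 2 members, Epha1 (45.5% of reads) and Sema6d (72.7%). Whether that place lies in a gene was not checked. The counts of both members are uncertain where the authors' counting could split or drop such reads. Columns of other samples were not present.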

Additional observations from a re-analysis of the deposited data

How the results depend on the processing

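Of all genes, 228 passed p and fold. DESeq2 called 479, the procedure modelled on the study's methods 429, edgeR with the replicate block 598, and replicates 1 and 2 only 613. Leaving out 1 library gave 163 to 547 genes (163 without AMD3100 replicate 1, 547 without control replicate 3, 451 without AMD3100 replicate 3). By adjusted p, 0 genes passed in edgeR, 5 with DESeq2 and 3 with the replicate block, none of them a guidance gene.

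Of the guidance genes, 1 (Plxna3) passed p and fold, against 2 with at least 10 counts in every library (Sema4f and Plxna3, 40 genes measured), 0 with no filter, 3 with the replicate block (Sema3f, Plxna3 and Plxnb1) and 0 in replicates 1 and 2 only. Without 1 library there were 0 to 2: 0 without AMD3100 replicate 1, AMD3100 replicate 3 or control replicate 1, Plxna3 and Plxnb1 without AMD3100 replicate 2, Sema4d without control replicate 2, and Sema3f without control replicate 3. The median log2 fold change of the guidance genes stayed between -0.11 and 0.11 without any 1 library and was 0.01 with the block. Without 1 library the log2 fold change took either sign for 27 of the 48 guidance genes tested, none of them past the test. Of these, 11 are among those named by the rule. It ran from -0.79 to 0.37 for Efna2, -0.33 to 0.56 for Efna5, -0.27 to 0.12 for Efnb1, -0.42 to 0.24 for Efnb2, -0.43 to 0.28 for Epha4, -0.11 to 0.25 for Epha7, -0.29 to 0.14 for Ephb2, -0.10 to 1.06 for Ephb3, -0.10 to 0.66 for Plxnb2, -0.21 to 0.17 for Sema3a and -0.0012 to 0.20 for Sema3b. No other alternative turned the sign of a guidance gene named by the rule. Outside the guidance genes the replicate block also added calls for Tiam1, Sdcbp, Krt15, Twist1 and Myog. The cause of these changes was not tested. Epha2 and Ephb1 had under 40 counts in every library, and their differences cannot be separated from the spread of 3 libraries a group.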
